A study of Rattus norvegicus with 8 samples.

Results

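Neurotrophins, their receptors and the peptide precursor Vgf were described in the dentate gyrus (DG) of seizured rats through the 8 genes Bdnf, Ntf3, Gdnf, Ntrk2, Ntrk3, Ngfr, Sort1 and Vgf. They were chosen by name, and their spots were the non-control spots of the arrays that carry one of these names. These are 8 of 35250 gene names on the array, with 50 of 43379 non-control spots and 14 of 41012 probes. All rats were adult female Sprague-Dawley rats whose ovaries had been removed (OVX) and that went through status epilepticus (SE, a continuous seizure) after kainic acid, a glutamate receptor agonist. The COS group (castrated, oil-injected, SE) and the CES group (castrated, estradiol-replaced, SE) held 4 rats each. Per the sample records a CES rat had 4 injections of 2 µg estradiol 24 h apart, 2 before and 2 after SE, a COS rat had oil at the same times, and SE followed 16 mg/kg of kainic acid and was stopped with pentobarbital after 5 h. The records label the estradiol treatment EB, and the study's methods name estradiol benzoate. The study's methods give a lower kainic acid dose, another drug to stop SE, all injections before SE, and 2 different times of tissue collection, so the interval from SE to collection is not settled here. The groups without SE were not analysed here, so each difference below is between estradiol and oil within seizured rats. The DG was dissected as tissue, and fewer cells of a type cannot be told apart from less RNA per cell.

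Neurotrophins are secreted as proforms that proteases cut into mature ligands, and the mature ligands act on Trk receptor tyrosine kinases while the proforms bind the p75 receptor together with sortilin. In granule cells of the DG, Bdnf and Vgf are known as genes that neuronal activity switches on, and Bdnf signaling through TrkB is known for its part in synaptic plasticity and in the development of epilepsy. Gdnf belongs to another ligand family that signals through Ret and its co-receptors.

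RNA of each rat was labeled with Cy3 (replicates 1 and 3) or Cy5 (replicates 2 and 4), and each of the 4 arrays, all on 1 slide, held 2 rats of the same group. The level of a gene is the log2 of its background-subtracted intensity relative to the median valid spot of its channel, so 0 is the median spot, and levels of different probes are not comparable with each other. Valid spots had a foreground of 2 or more times the local background, and a channel had from 30690 to 38553 valid spots with no spot saturated. A total of 21372 genes had a spot valid in all 8 rats, among them all 8 members through 13 of their 14 probes. CES replicate 2 stood apart from its label: over all genes its mean correlation was 0.960 with the other CES rats and 0.979 with the COS rats, while the other 7 rats had from 0.973 to 0.986 with their own group. The difference of each member is therefore also given without this rat. The median difference over all genes was -0.25, so differences are also given after subtracting this median. Of 6 granule cell markers, Dsp, C1ql2 and Tdo2 were called lower in CES (-1.24, -1.23 and -0.57), Neurod1 was called higher (1.16), Calb1 did not pass (-0.28, adjusted p = 0.376) and Prox1 had no spot valid in all rats. The part of these cells in the differences below was not tested. The summed level of 5 choroid plexus markers ran from 5.01 to 9.51 in COS and from 5.54 to 7.93 in CES, a spread that did not follow the groups.

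Of the 8 members, 3 fell and 2 rose from COS to CES (limma, Benjamini-Hochberg adjusted p under 0.05). Bdnf, Ngfr and Vgf were lower with estradiol and Ntf3 and Sort1 were higher. Over all genes 34.1% were called, 5.79% higher and 28.3% lower, so a fall is common among the genes of this array under this scaling. The share of calls in each direction depended on the scaling. Of all calls 17.0% were higher in CES here, against 66.1% after scaling over spots valid in all rats. On the authors' own table of log2 values the share was 62.9%. After subtracting the all-gene median the same 5 members were called, beside 24.1% of all genes (11.6% higher and 12.5% lower). Groups did not overlap for Bdnf, Ngfr and Sort1, against 21.4% of all genes (1.61% higher and 19.8% lower). The median difference was 0.06 over the 8 members and -0.25 over all genes. The arrays lie within the groups, so array and group cannot be told apart except through the spread between arrays.

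**Figure D1:**
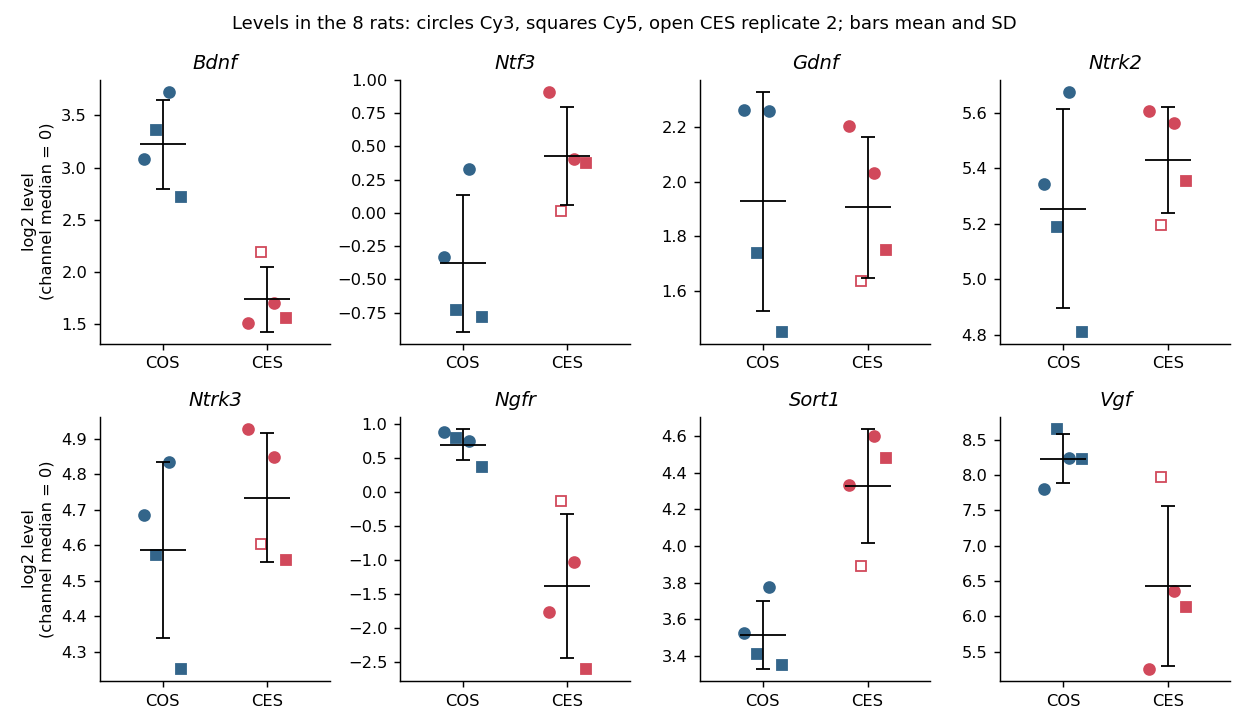
Log2 level (y axis, channel median at 0) of each member in the 4 COS and the 4 CES rats, with circles for Cy3, squares for Cy5, an open symbol for CES replicate 2, and bars for the mean and SD. For Bdnf and Ngfr all 4 CES rats lie below all COS rats, for Sort1 all lie above, and CES replicate 2 is the CES rat nearest to the COS mean for the 5 called members. This rat is also the nearest for 53.6% of the 7292 genes called over the whole array.

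Bdnf, the ligand of TrkB, was lower in every CES rat. Its level was 3.09, 3.36, 3.73 and 2.72 in COS replicates 1 to 4 and 1.51, 2.19, 1.70 and 1.56 in CES replicates 1 to 4. The highest CES rat, replicate 2, stayed 0.53 below the lowest COS rat. The difference was -1.48 (standard error 0.25, adjusted p = 0.00445), a level 2.79-fold lower with estradiol, and it was -1.23 (adjusted p = 0.0104) with the all-gene median subtracted. Without CES replicate 2 it was -1.67. Within a dye, 2 rats against 2, it was -1.80 for Cy3 and -1.16 for Cy5.

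Bdnf was read by 2 probes at either end of its coding exon, at chr3_random:976345-976404 and chr3_random:979381-979440 of rn4, plus strand. The first is shown because it holds the start of the coding sequence, with the start codon in capitals, which all transcripts of the gene share. Of the second the last 30 bases are shown (chr3_random:979411-979440), with the AATAAA hexamer that precedes polyadenylation in capitals, since it reads only transcripts with the distal end.
Bdnf probe 1: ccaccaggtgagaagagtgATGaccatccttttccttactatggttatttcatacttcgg
Bdnf probe 2: tctgagagacgttagtcaaacaAATAAAag
Probe 1 had levels of 4.28, 4.76, 4.71 and 4.25 in COS and of 2.32, 3.25, 2.36 and 2.35 in CES, and probe 2, printed in 10 spots, had from 2.42 to 3.58 in COS and from 1.40 to 2.03 in CES. At neither probe did the groups overlap, as at 21.6% of all probes (1.58% higher and 20.0% lower in CES). The difference was -1.93 at probe 1 (adjusted p = 0.00303 over all probes) and -1.37 at probe 2 (adjusted p = 0.00539), while 34.5% of all probes were called, 5.48% higher and 29.0% lower. Without CES replicate 2 it was -2.15 at probe 1 and -1.56 at probe 2. The distal probe minus the coding probe averaged -1.50 ± 0.31 in the 4 COS rats and -0.95 ± 0.20 in the 4 CES rats (mean ± SD), and the gap of 0.56 between the groups did not pass (exact permutation test, two-sided, p = 0.0571, adjusted p = 0.0667 over 7 pairs of probes). With 4 rats a group, 1 pair could not have passed this adjustment by itself.

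Ntf3, neurotrophin-3, the main ligand of TrkC, was higher in CES. Its level was -0.33, -0.73, 0.33 and -0.79 in COS and 0.91, 0.02, 0.41 and 0.38 in CES. The groups overlapped, since COS replicate 3 lay above CES replicate 2. The difference was 0.81 (standard error 0.21, adjusted p = 0.0163), 1.06 with the all-gene median subtracted and 0.85 without CES replicate 2. Within a dye it was 0.66 for Cy3 and 0.96 for Cy5. The call rested on single rats: without COS replicate 1 the adjusted p was 0.0656, without COS replicate 4 it was 0.0663 and without CES replicate 1 it was 0.0734. The probe lies in the coding part, at chr4:162436573-162436632 of rn4 on the minus strand, and is shown as the only sequence that read this gene.
Ntf3 probe: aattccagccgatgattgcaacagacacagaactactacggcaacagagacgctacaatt

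Gdnf did not pass the test at the probe that could be quantified (chr2:57403890-57403949), in the 5' part of its coding sequence. Its level was 2.26, 1.74, 2.26 and 1.45 in COS and 2.21, 1.64, 2.03 and 1.75 in CES. The difference was -0.02 with a 95% interval from -0.37 to 0.33 (adjusted p = 0.927), it was -0.02 without CES replicate 2, and its sign changed with the processing. The second probe (chr2:57423845-57423904), in the coding part for the mature ligand and printed in 10 spots, had 7, 10, 10 and 4 valid spots in COS and 1, 1, 2 and 0 in CES. None of these spots was well above background in any rat by the mark of the scanner software, so no level is given. Both are shown because they read the same gene and only the first gave a signal well above background. The Gdnf level thus rests on 1 spot of the first probe, and the second gave no level to set beside it.
Gdnf probe 1: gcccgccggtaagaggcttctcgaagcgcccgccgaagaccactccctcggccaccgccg
Gdnf probe 2: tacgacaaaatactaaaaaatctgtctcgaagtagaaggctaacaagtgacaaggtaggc
The share of G and C was 73.3% in probe 1 and 38.3% in probe 2.

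**Figure D2:**
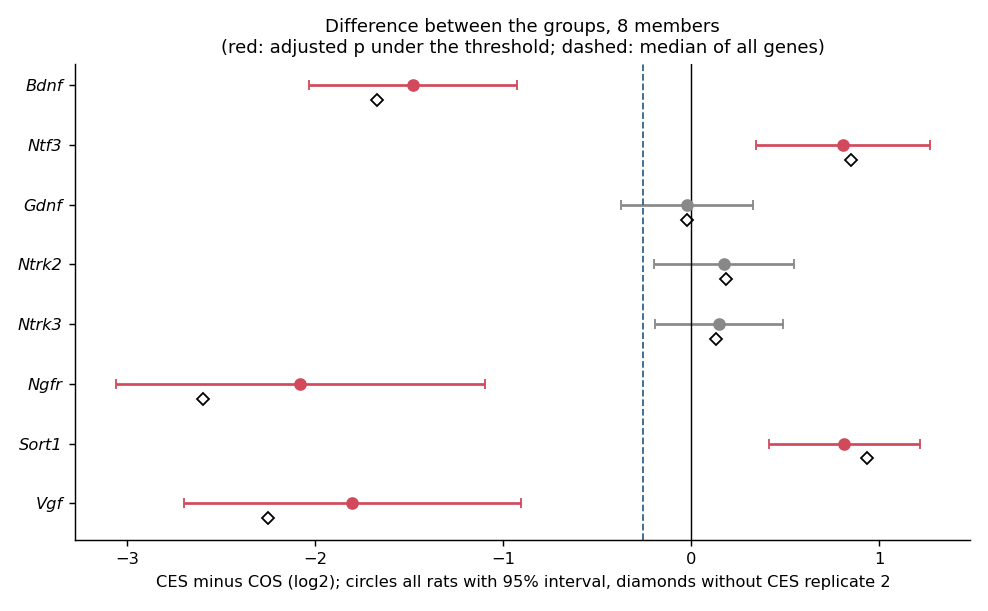
CES minus COS on the log2 scale (x axis) for each member, with circles and 95% intervals for all 8 rats (red where the adjusted p was under 0.05), diamonds without CES replicate 2, and a dashed line at the median of all genes. The diamonds of Bdnf, Ngfr and Vgf lie farther from 0 than their circles, and the intervals of Gdnf, Ntrk2 and Ntrk3 include 0.

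Ntrk2 encodes TrkB, the receptor of Bdnf, as a full-length kinase and as shorter forms without the kinase part. Averaged over its probes its level was 5.34, 5.19, 5.68 and 4.81 in COS and 5.61, 5.19, 5.56 and 5.35 in CES, with overlapping groups. The difference was 0.17 with a 95% interval from -0.20 to 0.55 (adjusted p = 0.449), and 0.19 without CES replicate 2. Spots were averaged before taking log2, so this mean is led by the last probe, which was the brightest and was printed in 10 spots while the other 2 had 1 spot each. The first probe went the other way.

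The 3 Ntrk2 probes lie on the minus strand of chromosome 17 in rn4, in the direction of transcription at chr17:11754284-11754343, chr17:11680049-11680108 and chr17:11495183-11495242. The first lies in the coding part for the extracellular domain and its annotation in the files names all listed transcript variants, while the second names variant 2 only and the third variant 1. They are shown to mark the stretches that gave different values, the first whole and of the others the first 30 bases.
Ntrk2 probe 1: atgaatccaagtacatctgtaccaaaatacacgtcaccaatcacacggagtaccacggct
Ntrk2 probe 2: cctttctgaaaaggtagtttatctttaggg
Ntrk2 probe 3: aggacctttctgaggaggacacagaatgtt
Probe 1 had levels of 2.48, 3.27, 3.07 and 3.11 in COS and of 1.56, 2.43, 2.13 and 1.96 in CES. All CES rats lay below all COS rats, although by only 0.05 between CES replicate 2 and COS replicate 1. The difference was -0.97 (standard error 0.21, adjusted p = 0.00852), -1.05 without CES replicate 2, and it lost its call without COS replicate 3 (adjusted p = 0.0683) and after loess and Aquantile normalization (-0.58, adjusted p = 0.0613). Probe 2 differed by 0.15 (adjusted p = 0.549) and probe 3 by 0.19 (adjusted p = 0.416). Probe 2 minus probe 1 averaged 1.62 ± 0.49 in COS and 2.74 ± 0.59 in CES (mean ± SD, 4 rats each), and probe 3 minus probe 1 averaged 2.43 ± 0.57 and 3.58 ± 0.53. Each of these contrasts had p = 0.0571 (exact permutation test, two-sided), or 0.0667 adjusted over the 7 pairs, while probe 3 minus probe 2 differed by 0.04 (exact permutation p = 0.857). With 4 rats a group the smallest p of this test is 0.0286. Even at that p, the pairs of 1 member could not pass the adjustment over 7 pairs by themselves.

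Ntrk3 encodes TrkC, the receptor of neurotrophin-3. Its level was 4.69, 4.57, 4.83 and 4.25 in COS and 4.93, 4.61, 4.85 and 4.56 in CES, and the groups overlapped over most of their range. The difference was 0.15 with a 95% interval from -0.19 to 0.49 (adjusted p = 0.481), and it was 0.13 without CES replicate 2. Its probe is at chr1:133925545-133925604 of rn4. Both Trk receptors moved past the threshold under some scalings: after loess and Aquantile normalization the difference was 0.46 for Ntrk2 (adjusted p = 0.0495) and 0.45 for Ntrk3 (adjusted p = 0.0460), and there the median of all genes was 0.08.

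Ngfr encodes p75, the receptor that binds all neurotrophins and, with sortilin, their proforms. Its level was 0.88, 0.79, 0.76 and 0.37 in COS and -1.76, -0.13, -1.03 and -2.60 in CES. All CES rats were lower than all COS rats, and the CES rats varied far more, with an SD of 1.05 against 0.23. The difference was -2.08 (standard error 0.44, adjusted p = 0.00812), and -1.83 with the all-gene median subtracted. Without CES replicate 2 it was -2.60, without COS replicate 3 the adjusted p was 0.0710, and within a dye it was -2.22 for Cy3 and -1.94 for Cy5.

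The Ngfr signal was near background in CES. Of its 10 spots, all were well above background in every COS rat, while 0, 10, 1 and 10 were in CES replicates 1 to 4. The mean foreground was 12.1, 25.9, 8.70 and 24.3 times the local background in COS and 2.64, 15.2, 3.46 and 3.26 times in CES, so the low CES values carry the error of that background, and with normexp background correction the difference was -1.14 (adjusted p = 0.0932). A filter that kept only spots clearly over background in every rat left Ngfr without a value. The summed level of 5 endothelial and mural markers was between 4.95 and 5.58 in COS and between 4.28 and 5.00 in CES. Of these, Flt1, Pdgfrb and Kdr fell, Rgs5 rose and Cldn5 did not pass, and their part in the Ngfr difference was not tested. The first 30 bases of the probe, at chr10:84263112-84263141 of rn4 on the minus strand, are shown because a single sequence stood for the gene.
Ngfr probe: gagaccaggagcattgtacgcatacgcggg

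Sort1 encodes sortilin, which sorts pro-BDNF into the regulated secretory pathway and pairs with p75 at the cell surface. Averaged over its 3 probes its level was 3.52, 3.41, 3.77 and 3.35 in COS and 4.34, 3.89, 4.60 and 4.48 in CES. All CES rats were higher than all COS rats. The difference was 0.81 (standard error 0.18, adjusted p = 0.00953), a level 1.76-fold higher with estradiol, and 1.07 with the all-gene median subtracted. Without CES replicate 2 it was 0.94, without COS replicate 3 the adjusted p was 0.0526, and within a dye it was 0.82 for Cy3 and 0.81 for Cy5.

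Of the 3 probes of Sort1, 1 was called. They lie on the plus strand of chromosome 2 in rn4, at chr2:203918361-203918420 in the coding part and at chr2:203927627-203927686 and chr2:203930799-203930858 toward the 3' end. The coding probe is shown whole and of the last probe the first 30 bases, as the 2 sequences whose differences lay farthest apart.
Sort1 probe 1: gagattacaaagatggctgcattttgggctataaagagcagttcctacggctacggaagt
Sort1 probe 3: cgtggttccattcgttatatcattaagaat
Probe 1 had levels of 1.53, 1.53, 1.68 and 1.17 in COS and of 1.20, 0.87, 1.35 and 0.91 in CES, and its difference of -0.39 did not pass (adjusted p = 0.0802) and was -0.01 after loess and Aquantile normalization (adjusted p = 0.951). Probe 2 differed by 0.18 (adjusted p = 0.592). Probe 3 had levels from 4.57 to 5.10 in COS and from 5.29 to 6.0 in CES, a difference of 0.97 (adjusted p = 0.00601) with no overlap, and 1.10 without CES replicate 2. Probe 3 minus probe 1 averaged 3.29 ± 0.21 in COS and 4.66 ± 0.26 in CES (mean ± SD, 4 rats each). That contrast reached the smallest p the exact permutation test allows, 0.0286, as did the other 2 pairs of Sort1. None of the 7 pairs passed after adjustment (adjusted p = 0.0667 for these 3). The pairs of Sort1 could not have passed by themselves, so the adjusted p does not decide whether its probes differ. In COS replicate 2 the scanner software marked the spot of probe 3 as an outlier. When spots with such a mark in any rat were left out, only probes 1 and 2 were averaged and the Sort1 difference was -0.04 (adjusted p = 0.904), while leaving out COS replicate 2 itself gave 0.83 (adjusted p = 0.0253).

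**Figure D3:**
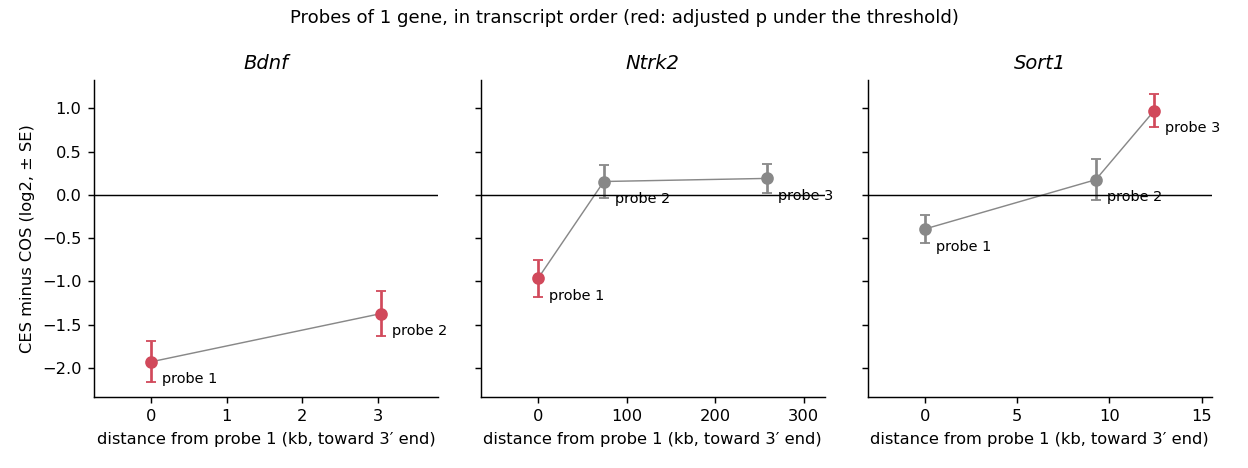
CES minus COS on the log2 scale (y axis, with standard errors) of the single probes of Bdnf, Ntrk2 and Sort1 against their distance in the genome from the first probe in kb toward the 3' end (x axis), red where the adjusted p over all probes was under 0.05. The last 2 probes of Ntrk2 are annotated to different transcript variants. The first probe of each gene has the lowest difference, -1.93 in Bdnf, -0.97 in Ntrk2 and -0.39 in Sort1. The last probe is at -1.37 in Bdnf and 0.97 in Sort1, and the last 2 probes of Ntrk2, at 0.15 and 0.19, changed their order without CES replicate 2 (0.28 and 0.20), among other single rats.

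Vgf encodes the precursor of peptides stored in dense-core vesicles and is known as a gene that BDNF induces. Its level was 7.81, 8.65, 8.25 and 8.23 in COS and 5.25, 7.98, 6.36 and 6.13 in CES. CES replicate 2 lay within the COS range, above COS replicate 1, and the other CES rats were at least 1.45 below every COS rat. The difference was -1.80 (standard error 0.40, adjusted p = 0.00982), a level 3.49-fold lower with estradiol, and -1.55 with the all-gene median subtracted. Without CES replicate 2 it was -2.25, and within a dye it was -2.22 for Cy3 and -1.39 for Cy5. The call was lost without COS replicate 3 (adjusted p = 0.0926), without CES replicate 1 (adjusted p = 0.0506) and under 7 of the other alternatives, with adjusted p from 0.0531 to 0.164.

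The Vgf probe lies at the 3' end of the gene (chr12:20906265-20906324 of rn4, plus strand), and its last 30 bases hold the AATAAA hexamer, in capitals. Since Vgf and Bdnf are known targets of the factor CREB, which binds the cAMP response element TGACGTCA, promoters were searched on both strands from 250 bases before to 50 after the start site (RefSeq, GRCr8), and 12 promoters of 5 members were found. The Vgf promoter holds the element from -90 to -83 (capitals, chr12:25277092-25277121, minus strand), which 1.83% of 33469 promoters hold. Its core TGACG, held by 21.2% of promoters and contained in the full element, is in the Vgf and Gdnf promoters and in 1 of 6 Bdnf promoters, there on the other strand (capitals, chr3:116637812-116637841, plus strand).
Vgf probe: atagttttgctaagaAATAAAagtgactat
Vgf promoter: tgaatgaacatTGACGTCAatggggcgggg
Bdnf promoter: atgacagctcaCGTCAaggcagcgtggagc
The AP-1 site TGACTCA (4.63% of promoters), the Egr site GCGTGGGCG (0.544%) and the palindromic estrogen response element (0.0269%) had no match in the windows of the members. These matches describe letters in the reference and not binding in these rats.

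Across the 8 rats, the levels of the called members went together with those of many genes. The numbers of genes with a Pearson correlation above 0.9 were 3060 for Bdnf, 2506 for Ngfr, 858 for Sort1, 538 for Vgf and 369 for Ntf3, and all these points share the group difference and the dye. The gene most like Bdnf was Ubap1 (r = 0.999, n = 8 rats), followed by Naa12 and Ranbp2. Those most like Ngfr were Parp3, Kpna4 and Casp4 (r = 0.995 each). Vgf was most like Rpl27a (r = 0.996), and Npy, a neuropeptide gene with a difference of -1.84, was also among the nearest. Sort1 was most like 2 transcripts without a gene name and then Coro2b (r = 0.995), and Ntf3 was most like Hspa12a (r = 0.988), an unnamed transcript and Glrx. Among the members, Bdnf and Ngfr had r = 0.905 over the 8 rats and 0.613 after subtracting the group means, and Ntrk2 and Ntrk3 had 0.956 and 0.951.

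The other genes of the pathway were taken from a list of 58 other ligands, receptors, adaptors, proteases and dense-core vesicle genes. Of the 54 with a value, 6 rose, 19 fell and 29 did not pass, with a median difference of -0.31 beside -0.25 for all genes. Over all genes 34.1% were called, 5.79% higher and 28.3% lower. With the all-gene median subtracted, 11 of the list were called higher and 13 lower, beside 11.6% and 12.5% of all genes. Without CES replicate 2, 8 of the list were called higher and 24 lower, beside 41.5% of all genes called. Without COS replicate 3, 6 of the list were called, beside 5.59% of all genes. Without CES replicate 1, 12 of the list were called, beside 14.2% of all genes.

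Among the ligands, Ntf4 had no spot valid in all rats. In the GDNF family, the receptor tyrosine kinase gene Ret had levels of 2.83, 2.62, 2.94 and 2.84 in COS and of 0.58, 1.48, 0.82 and 0.43 in CES, with no overlap. Its difference was -1.98 (adjusted p = 0.00308), and it stayed called without any single rat (highest adjusted p 0.0473). The ligand gene Nrtn fell by 1.74 (adjusted p = 0.00489) and the co-receptor gene Gfra1 by 0.93 (adjusted p = 0.0303). The Gfra1 call was lost with the all-gene median subtracted (adjusted p = 0.104) and without COS replicate 3 (adjusted p = 0.175). Of 9 genes of the GDNF family, 3 fell and Ncam1, named after its value was seen, rose, while Gdnf itself did not pass. Over all genes 28.3% were called lower and 5.79% higher. With the all-gene median subtracted 2 of the 9 were called higher and 2 lower, beside 11.6% and 12.5% of all genes.

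Of 8 quantified proteases of the proforms 5 fell and none rose, with a median of -1.13, beside 28.3% of all genes called lower and 5.79% higher. With the all-gene median subtracted 4 were called lower and 1, the prohormone convertase gene Pcsk2, named after its value was seen, was called higher (adjusted p = 0.0243). Of all genes 12.5% were then called lower and 11.6% higher. Those that fell included Plat, tissue plasminogen activator, which starts the plasmin cascade that cuts pro-BDNF, at -2.08 (adjusted p = 0.00374), the prohormone convertase gene Pcsk1 at -1.44 (adjusted p = 0.0123) and Furin at -1.16 (adjusted p = 0.00892). Of 16 Trk adaptors 6 fell and none rose, among them Shc1 by 1.75 (adjusted p = 0.00456), and 4 were called lower with that median subtracted. Among 11 sortilin relatives and p75 partners 3 fell, a share near that of all genes, with Ripk2 at -1.86 (adjusted p = 0.00399), a kinase recruited to p75, and Traf6, an adaptor of p75, at -1.25 (adjusted p = 0.00417). The 2 that rose, named after their values were seen, were Sorl1, a sortilin relative, at 1.01 (adjusted p = 0.0110) and Rtn4r, the Nogo receptor that partners with p75, at 1.17 (adjusted p = 0.00905). With that median subtracted 3 of the 11 were called higher and 2 lower, beside 11.6% and 12.5% of all genes. Without COS replicate 3 Furin, Pcsk1, Shc1, Sorl1 and Rtn4r lost their calls (adjusted p from 0.0504 to 0.0856). Plat, Ripk2 and Traf6 kept theirs (adjusted p = 0.0474 each). The summed level of 6 microglial markers was between 5.08 and 5.68 in COS and between 4.64 and 5.14 in CES. Of these markers, Itgam, Csf1r and Cd68 fell, P2ry12 rose, and Aif1 and Cx3cr1 did not pass. Their part in the differences above was not tested.

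Of the 8 dense-core vesicle genes, Scg2, secretogranin II, fell as Vgf did. Its level was 6.44, 7.12, 6.72 and 6.34 in COS and 4.00, 5.83, 5.00 and 4.46 in CES, again with CES replicate 2 nearest to COS. The difference was -1.83 (adjusted p = 0.00552), -2.15 without CES replicate 2, and its call was lost without COS replicate 3 (adjusted p = 0.0619). The 2 that rose, Scg5 by 0.59 (adjusted p = 0.0448) and Cadps by 0.54 (adjusted p = 0.0490), were named after their values were seen, and the other 5 did not pass. When single rats were left out, each of these 2 stayed called only without CES replicate 2 (highest adjusted p 0.148 for Scg5 and 0.155 for Cadps). With the all-gene median subtracted 4 of the 8 were called higher and 1 lower. Of all genes 5.79% were called higher and 28.3% lower, and 11.6% and 12.5% with that median subtracted.

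**Figure D4:**
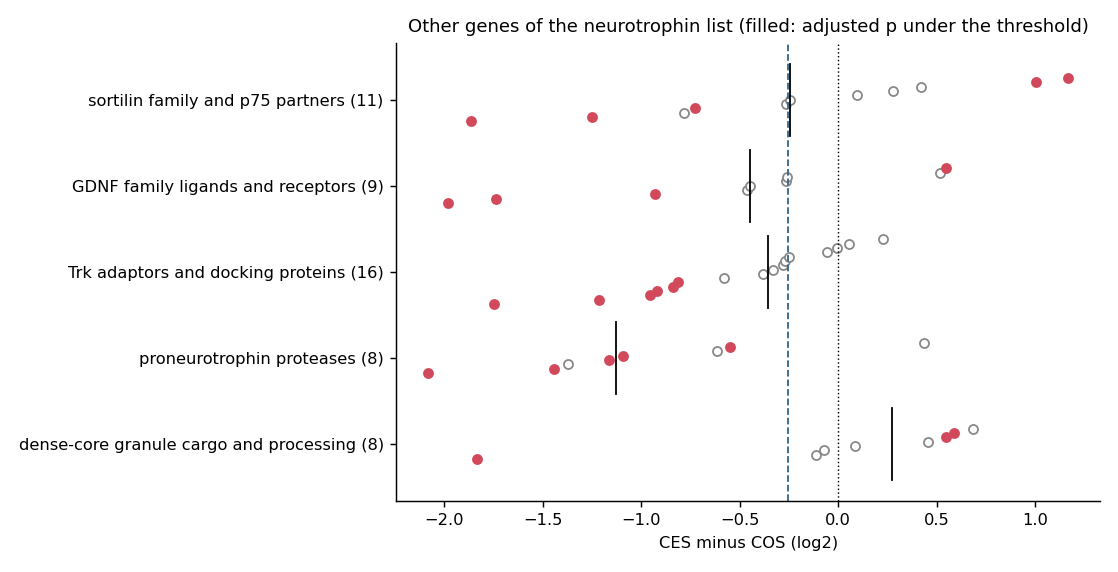
CES minus COS on the log2 scale (x axis) of the quantified genes of the list in roles with 5 or more of them, by role, filled red where the adjusted p was under 0.05, with a black bar at the median of each role and a dashed line at the median of all genes. The proteases have the lowest median, -1.13, and the dense-core vesicle genes the highest, 0.27.

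**Figure D5:**
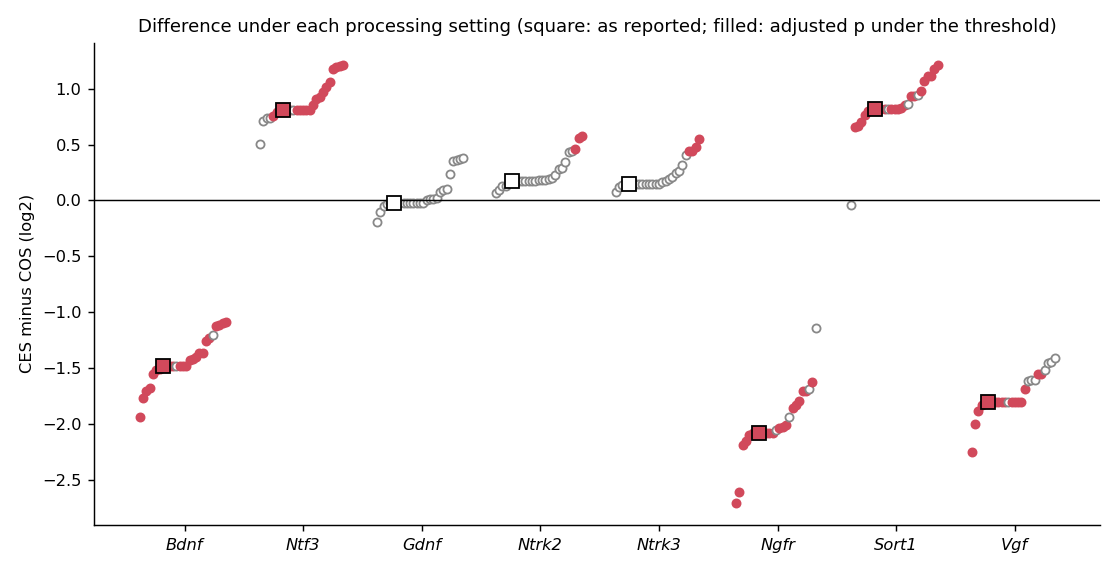
CES minus COS on the log2 scale (y axis) of each member under each processing setting, with a square for the value as reported and filled symbols where the adjusted p was under 0.05. Bdnf and Vgf stayed below 0 and Ntf3 above 0 under all settings run, Ngfr stayed below 0 under all that gave it a value, Sort1 fell to -0.04 under 1 of them, and Gdnf changed sign.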

How the data were processed

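The members and the gene lists were chosen with earlier results of these data known. The authors deposited scanner files with the intensity of each spot and its local background per channel (Agilent Feature Extraction 10.7.3.1, per the file headers), and a table of log2 values, each the median signal minus background relative to the median of its channel. Probe positions are those in the files (rn4).

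From the intensity files, the background median was subtracted from the mean signal, the result was divided by its median over valid spots of the channel, and spots of a gene valid in every rat were averaged before taking log2. Spots marked as outliers were kept. Members kept their name in the files. Other probes took the RefSeq symbol of their accession where one matched, which held for 17512 of 41012 probes. The groups were compared by limma 3.58.1 (R 4.3.3, statmod 1.5.0), two-sided, with a fixed dye term, a random array block and Benjamini-Hochberg adjustment over all genes or all probes at 0.05. The fit was tested on simulated data. Probe pairs were compared by the exact permutation test, two-sided. Figures used matplotlib in Python. The number of arrays limits the precision, and the median standard error of a difference was 0.20 in log2 units.

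Rats of the same replicate number deviated together (correlations from 0.209 to 0.336), as did rats of different number with the same dye (from 0.208 to 0.438), and within a dye the correlations were -0.06 and -0.04, so the shared number carries the dye, which is in the fit. Nothing in the labels says that a number marks a shared litter or day.

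The genes named beside the members were Ntf4, Ret, Gfra1, Pcsk1, Furin and Scg2, of the called pathway genes the 8 with the largest absolute differences, and for each called member the 3 genes with the highest correlation. Some of the genes this rule takes are not reported here. Alternatives covered background correction, the processed signal, 3 normalizations, centring, filters on dim spots, outlier marks, the blocks, the rule for probes, the methods' t-test, leaving out each rat and the deposited log2 table. Weighting the probes of a gene equally was added after seeing the data.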

Additional observations from a re-analysis of the deposited data

Results flagged for a closer look

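In a search of 32 groups of 4 values (the levels of members and their probes in COS and in CES), 1 held a rat far from the others. At the coding probe of Bdnf CES replicate 2 had a level of 3.25 where the other 3 CES rats had 2.32 to 2.36, a gap of 0.959 of the range. Chance alone marks about 1 in 20 such groups.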

How the results depend on the processing

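Values here are CES minus COS on the log2 scale or counts of called genes. With normexp background correction no member stayed called (Bdnf -1.20, Ntf3 0.50, Ngfr -1.14, Sort1 0.94, Vgf -1.61), and 587 genes and 6 of the pathway list were called in place of 7292 and 25. By the methods' t-test the values Bdnf -1.48, Ntf3 0.81, Ngfr -2.08, Sort1 0.81 and Vgf -1.80 and 6114 genes had an unadjusted p under 0.05, and 0 genes and 0 of the list passed adjustment. Vgf also lost its call after loess (-1.51), quantile normalization (-1.60), scaling over spots valid in all rats (-1.40), on the deposited table (-1.45) and with no filter (-1.80, with Ntf3 at 0.81). Ngfr lost it under that scaling (-1.68) and at a foreground of 3 times background (-1.94), and had no value with spots well above background in all 8 rats. Ntrk2 was called higher after loess (0.46), that scaling (0.57) and on the deposited table (0.56), and Ntrk3 also after quantile normalization (0.45, 0.55, 0.48 and 0.44). Gdnf turned positive with normexp (0.10), the processed signal (0.071), loess (0.37), quantile (0.36), scaling (0.38), centring (0.23), the deposited table (0.37) and the stricter filter (0.10). Sort1 turned to -0.036 without outlier spots, which drop its brightest probe. With no filter 3210 genes and 13 of the list were called, with the stricter filter 4107 genes, and after loess 5895 probes in place of 8872. In other cases the cause was not tested.

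Of all calls 17.0% were higher in CES, and 63.5% after loess, 59.6% after quantile normalization, 66.1% after scaling over spots valid in all rats, 62.9% on the deposited table, 48.1% after centring and 31.0% with the stricter filter. Leaving out 1 rat gave from 1194 to 8862 genes, from 6 to 32 of the list and from 1965 to 10767 probes, lowest without COS replicate 3, and member values from -1.70 to -1.26 for Bdnf, 0.71 to 0.97 for Ntf3, -0.11 to 0.022 for Gdnf, -2.60 to -1.62 for Ngfr, 0.66 to 0.94 for Sort1 and -2.25 to -1.46 for Vgf. The fit with the replicate block called 7888 genes, 9667 probes and 29 of the list and changed no call of a member. Low signal over background limits Ngfr in CES and the distal Gdnf probe.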
